A study of Mus musculus with 15 samples.

Results

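The subunits of the mitochondrial respiratory chain and ATP synthase were followed in regulatory T cells (Tregs), the Foxp3-expressing T cells that hold immune responses in check. Members were the genes of the count table whose mouse symbol names a subunit of complexes I to V by the stems Nduf, Sdh, Uqcr, Cox4 to Cox8, Atp5 or the mitochondrial mt-Nd, mt-Co, mt-Atp and mt-Cytb. After 6 pseudogenes named with "-ps" were left out, 101 of 45706 genes were members, 88 of them nuclear and 13 encoded on the mitochondrial chromosome. The nuclear members comprised 40 of complex I, 4 of complex II, 8 of complex III, 19 of complex IV and 17 of complex V. The mitochondrially encoded ones comprised 7 of complex I, 1 of complex III, 3 of complex IV and 2 of complex V. Tregs had been purified by sorting from adult C57BL/6 mice crossed to a Foxp3 reporter line, which were RelB-dDC animals or their control littermates. The labels do not spell out dDC and name neither the promoter that drives the deletion nor the number of animals behind a library, so the groups are called dDC and control, and p-values measure only the spread between these samples, which may be technical. Peritoneal cavity (PEC) had 2 dDC and 2 control libraries, thymus 2 dDC and 3 control libraries, and spleen 3 dDC and 3 control libraries.

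The respiratory chain passes electrons from NADH through complex I, or from succinate through complex II, to ubiquinone, complex III, cytochrome c and complex IV, which reduces oxygen. Complexes I, III and IV pump protons across the inner mitochondrial membrane, and complex V, the ATP synthase, uses their return to make ATP. All complexes but II combine subunits from both genomes, and Tregs are known to rely on oxidative phosphorylation more than conventional effector T cells do.

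Each library held between 15714286 and 24332044 counts. Foxp3 itself lay between 179 and 327 CPM (the gene's TMM-scaled count relative to the library's total) over the 15 libraries, and no gene of the 8 Treg markers was at 0. Genes of other cells were present too: the 10 B cell markers summed to 1138 to 2386 CPM in PEC, 42.9 to 89.4 CPM in thymus and 398 to 1171 CPM in spleen. The 12 macrophage and dendritic cell markers summed to 64.3 to 1535 CPM in PEC, with Fcgr1 at 0, to 10.4 to 39.9 CPM in thymus, with Cd14 at 0, and to 85.3 to 305 CPM in spleen. The 7 erythroid markers reached 2396 to 8056 CPM in spleen, 1.13 to 392 CPM in PEC, with Slc4a1 at 0, and 0.884 to 398 CPM in thymus.

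The mitochondrial members cannot all be read alike, because a stretch of mitochondrial DNA also lies in the nuclear genome. On chromosome 1 (mm10, minus strand, chr1:24611535-24616197), 7 annotated pseudogenes in a block of 4663 bases align to 7 of the mitochondrial genes. In 6 of them every aligned base was identical. The first 60 bases of mt-Co2, which encodes a catalytic core subunit of complex IV, show this: its copy Gm28661 carries the same letters (chrM:7013-7072, plus strand, and chr1:24615506-24615565, minus strand), so a read from here fits both places equally.

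mt-Co2: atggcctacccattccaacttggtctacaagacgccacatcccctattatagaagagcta

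Gm28661: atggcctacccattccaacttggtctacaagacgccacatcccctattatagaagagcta

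The copy of the end of mt-Co1, the other catalytic core subunit, is the exception, with a single differing base in 483 aligned bases. It is shown in capitals (mt-Co1 at chrM:6390-6449, Gm29216 at chr1:24616129-24616188, minus strand).

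mt-Co1: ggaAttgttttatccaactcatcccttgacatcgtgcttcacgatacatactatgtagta

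Gm29216: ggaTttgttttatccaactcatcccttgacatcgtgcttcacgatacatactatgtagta

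A pair of mitochondrial genes also overlap each other, mt-Atp8 and mt-Atp6, subunits of the membrane part of ATP synthase. They share 43 bases (chrM:7927-7969), printed with the start codon of mt-Atp6 and the stop codon of mt-Atp8 in capitals.

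mt-Atp8 and mt-Atp6: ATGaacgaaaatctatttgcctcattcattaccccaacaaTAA

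The 13 mitochondrial members separated into high and low levels by their place on the chromosome. The 6 genes lying wholly between the ends of the copied stretch (mt-Co2, mt-Atp8, mt-Atp6, mt-Co3, mt-Nd3 and mt-Nd4l) had mean levels of 8.05 to 156 CPM per kilobase of exon. The 7 genes outside it or reaching beyond it had 971 to 5388 CPM per kilobase. Of the 6, mt-Atp8 has no annotated copy of its own, and only 21.1% of its length lies in the annotated copies. The highest level was that of mt-Cytb, cytochrome b of complex III, at 5388 CPM per kilobase, followed by mt-Co1 at 2706 and the complex I subunit mt-Nd1 at 2489 CPM per kilobase. The complex I subunits mt-Nd2, mt-Nd5, mt-Nd4 and mt-Nd6 followed at 1185, 1117, 972 and 971 CPM per kilobase. Of the low members, mt-Co3, mt-Atp6 and mt-Co2 had 156, 149 and 132 CPM per kilobase, mt-Atp8 31.8, mt-Nd3 17.5 and mt-Nd4l 8.05. Mitochondrial messengers are cut from long shared transcripts, yet here neighbouring genes differed widely in count.

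For genes wholly inside the stretch, the annotated copies had counts of the same order as the genes they match. Gm28661 had a median of 90.1 CPM over the 15 libraries, against 85.0 CPM for mt-Co2. Gm28437 had 139 CPM against 117 CPM for mt-Co3, Gm10925 had 113 CPM against 93.0 CPM for mt-Atp6, and Gm10222 had 4.25 CPM against 2.43 CPM for mt-Nd4l. The copies of parts of the longer genes were far lower than those genes, with 94.6 CPM for Gm29216 against 4138 CPM for mt-Co1 and 14.8 CPM for Gm28439 against 1377 CPM for mt-Nd4. In sequence, 100% of the stretches of 50 bases in mt-Co2 recurred in another gene, as did 99.9% in mt-Co3, 99.5% in mt-Atp6, 98.8% in mt-Nd4l and 98.0% in mt-Nd3. The share was 62.2% in mt-Nd4 and 51.1% in mt-Co1, 8.19% in mt-Nd2 and 7.61% in mt-Nd5, and 0% in mt-Nd1, mt-Nd6, mt-Cytb and mt-Atp8, although mt-Atp8 lies between 2 copied genes and its own count was low. How reads that fit several places were treated is not given in the sources used here, and its part in the low counts was not tested. The 7 high members held 97.7 to 98.5% of all mitochondrial member counts, so sums over the 13 genes are sums over these 7 in all but a small part.

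**Figure D1:**
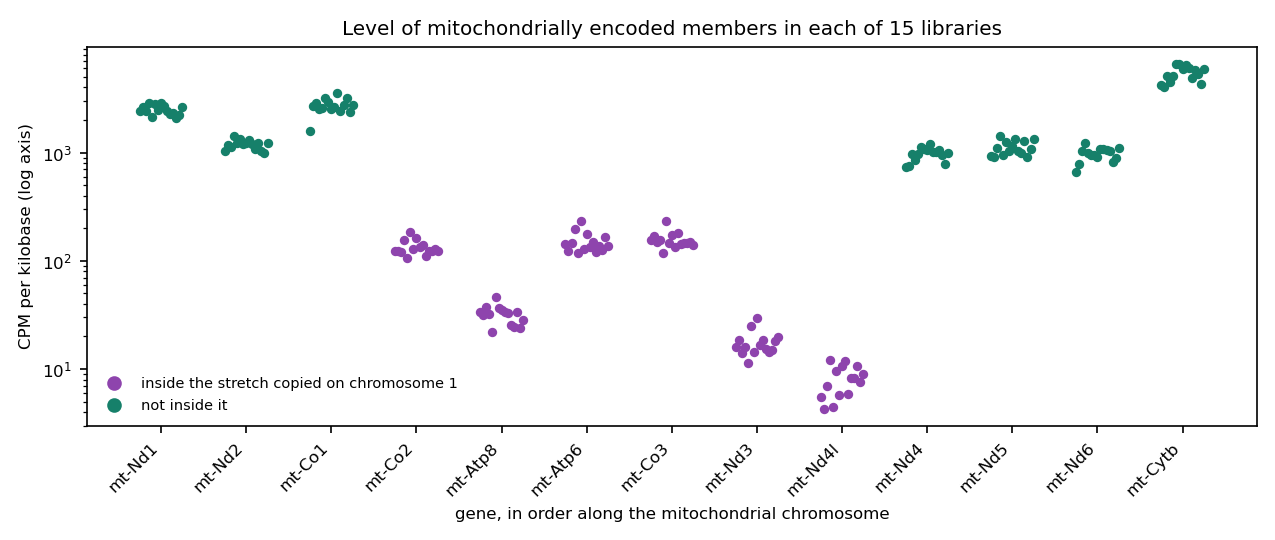
Level of each mitochondrially encoded member in each of the 15 libraries, in CPM per kilobase on a log axis, with genes in their order along the mitochondrial chromosome. The 6 genes between the ends of the stretch copied on chromosome 1 average 8.05 to 156 CPM per kilobase and the other 7 average 971 to 5388. Of the 6, mt-Atp8 has only 21.1% of its length in annotated copies.

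Among nuclear members the median level was 70.3 CPM per kilobase. The highest were Ndufa6, an accessory subunit of complex I, at 445 CPM per kilobase, then Cox6b1 at 392, Ndufa4 at 353, Cox6a1 at 352 and Cox4i1 at 293 CPM per kilobase. Ndufa4, first assigned to complex I, is now known as a complex IV subunit, but all counts and medians by complex here keep it in complex I by its symbol. Cox6b1, Cox6a1 and Cox4i1 are the widely expressed forms of complex IV subunits. Their counterparts known from heart, skeletal muscle, lung or testis were at the other end: Cox7a1 had 1.99, Cox6b2 0.755, Cox6a2 0.518, Cox4i2 0.256 and Cox8b 0.0747 CPM per kilobase. Cox7b2 and Cox8c had no count in any library, which allows up to 3 counts per library, or 0.191 CPM in the smallest. Ndufa4l2, known as a hypoxia-induced relative of Ndufa4, had 15 counts in all. It was left out of testing as too low, together with Cox8b, Cox7b2 and Cox8c, which left 84 nuclear and 13 mitochondrial members among the 18423 genes tested.

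Some core subunits also had low levels per kilobase. Cox5a, a core-bound nuclear subunit of complex IV, had 4.45 CPM per kilobase, and 38.7% of its exon bases overlap Gm26631 on the other strand. Atp5g2 and Atp5g1, which encode the same mature c subunit of the ATP synthase ring as Atp5g3, had 3.81 and 5.23 CPM per kilobase, against 64.1 for Atp5g3. Of the stretches of 50 bases in Atp5g2, 38.4% recur in other genes, as do 11.1% of those in Atp5g1. Uqcrfs1, the Rieske iron-sulphur protein of complex III, had 14.1 CPM per kilobase and shares no exon base with another gene. In complex II, Sdhc had 27.6 CPM per kilobase and the other 3 subunits 112 to 125. In all, 23 nuclear members overlap exons of another gene, and with libraries that do not mark the strand the reads of such pairs cannot be told apart, so these levels are uncertain. The levels also divide by every annotated exon base, 4912 for Atp5g1, 1675 for Atp5g2 and 2181 for Atp5g3. Annotated bases that are not transcribed here would lower a level, which was not tested.

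**Figure D2:**
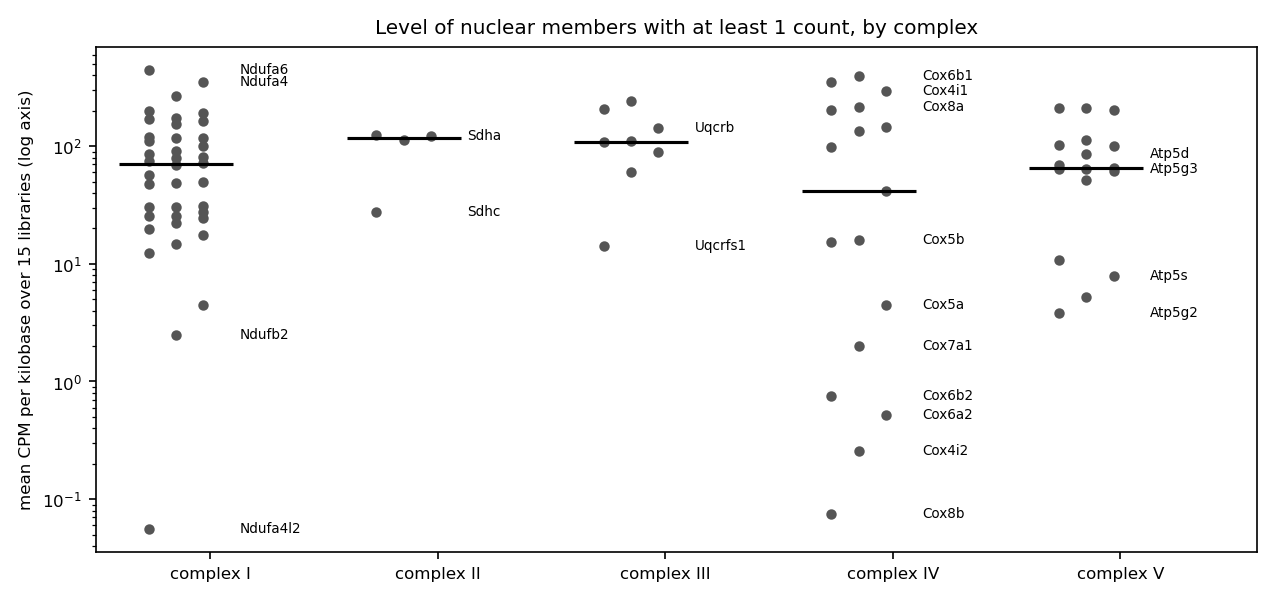
Mean level over the 15 libraries of each of the 86 nuclear members with at least 1 count, in CPM per kilobase on a log axis, by complex. Lines are medians (70.3 for complex I, 117 for II, 109 for III, 42.0 for IV and 64.9 for V), and complex IV spans Cox6b1 at 392 down to 5 forms at or under 1.99.

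The rule also took in 4 members annotated as processed pseudogenes, each of 1 exon. Ndufs6b, a relative of the complex I subunit Ndufs6, is 96.6% identical to it, and its counts were 35.0 to 46.4% of those of Ndufs6 over the libraries. Cox6c2 is 97.0% identical to Cox6c, with 26.7 to 34.8% of its counts. Ndufa11b and Ndufb4c are 94.8% and 100% identical to Ndufa11 and Ndufb4, with 9.51 to 15.0% and 8.49 to 18.6% of their counts. A stretch of 60 bases of the spliced Ndufs6 and Ndufs6b sequences, with the 5 differing bases in capitals, shows how little separates the pair (Ndufs6 on chromosome 13, Ndufs6b on chromosome 7, both minus strand).

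Ndufs6: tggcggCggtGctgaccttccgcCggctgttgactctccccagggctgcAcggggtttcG

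Ndufs6b: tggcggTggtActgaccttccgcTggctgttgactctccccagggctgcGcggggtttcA

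The promoters of the nuclear members were searched for the sites of 2 factors known to drive respiratory chain genes, NRF1 and the ETS family factor GABP. The letters were GCGCA and GCGC with any 1 base between them for NRF1 and CCGGAAG for the ETS core, on both strands, in RefSeq windows (GRCm38.p6) from 250 bases before to 50 after a gene's start, and such windows were at hand for 66 of the 88. The NRF1 letters were in 17 of 66 (25.8%), against 13.9% of the 5394 tested genes above 20 CPM outside the rule and 5.19% of all 27025 genes with a window. The ETS letters were in 16 of 66 (24.2%), against 25.5% and 9.93%. Cox6a1 held both kinds, 2 NRF1 matches and 1 ETS match, shown in capitals in its window (chr5:115348909-115349208, minus strand), and Sdha, the flavoprotein of complex II, held 3 NRF1 matches (chr13:74350191-74350490, minus strand). The windows of Atp5d, Ndufb2 and Ndufa4, members named elsewhere in this text, held no match of either kind. A match is a string of letters and was not tested as a binding site.

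Cox6a1 promoter: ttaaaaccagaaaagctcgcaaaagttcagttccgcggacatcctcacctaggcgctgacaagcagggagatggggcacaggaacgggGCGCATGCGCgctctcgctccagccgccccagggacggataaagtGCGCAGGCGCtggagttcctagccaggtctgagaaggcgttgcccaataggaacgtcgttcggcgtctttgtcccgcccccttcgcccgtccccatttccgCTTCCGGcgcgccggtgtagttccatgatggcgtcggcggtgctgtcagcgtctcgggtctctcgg

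Sdha promoter: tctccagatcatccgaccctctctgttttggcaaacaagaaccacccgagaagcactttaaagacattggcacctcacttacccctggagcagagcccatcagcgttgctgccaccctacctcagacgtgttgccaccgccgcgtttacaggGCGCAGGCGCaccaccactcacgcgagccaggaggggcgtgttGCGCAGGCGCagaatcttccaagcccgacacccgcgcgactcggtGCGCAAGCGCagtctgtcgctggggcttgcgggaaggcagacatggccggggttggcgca

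In share of all counts, the mitochondrial members stood lowest in PEC dDC Tregs. Mitochondrial members held 1.36 and 1.53% of counts in PEC dDC libraries, against 1.79 and 1.82% in PEC control libraries. Thymus libraries had 1.76 and 2.07% in dDC and 1.99, 2.01 and 2.05% in control Tregs, and spleen libraries had 2.00, 1.67 and 1.90% in dDC and 1.78, 1.602 and 1.90% in control Tregs. Both PEC dDC values were below all 13 others, and the 2 genotypes overlapped in thymus and spleen. Nuclear members held 0.965 to 1.24% of counts over the 15 libraries, with the lowest value in a PEC dDC library (0.965%) and 1.12% in the other, against 1.04 and 0.974% in PEC control libraries, so that the groups overlapped. The ratio of mitochondrial to nuclear member counts was 1.39 ± 0.0274 in PEC dDC libraries and 1.80 ± 0.101 in PEC control libraries (SD, n = 2 each). It was 1.66 ± 0.274 in thymus dDC libraries (n = 2) and 1.83 ± 0.140 in thymus control libraries (n = 3), and 1.596 ± 0.155 in spleen dDC and 1.58 ± 0.133 in spleen control libraries (n = 3 each). In bulk samples a lower share of a cell type and less RNA per cell cannot be told apart, and no test was made over these sums.

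**Figure D3:**
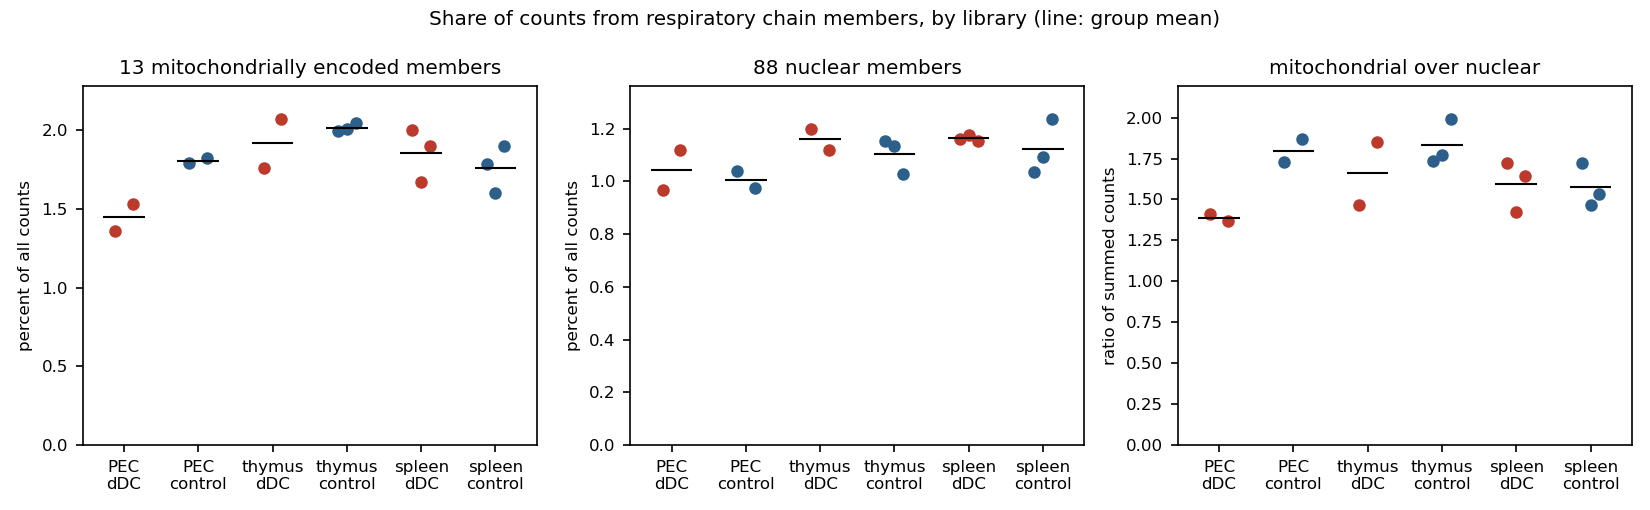
Percent of all counts from the 13 mitochondrially encoded members, percent from the 88 nuclear members, and the ratio of the 2 sums, for each library (points; line, group mean; dDC left of control in each tissue). The 2 PEC dDC libraries have 1.36 and 1.53% mitochondrial member counts, and the nuclear share lies between 0.965 and 1.24%.

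For PEC Tregs, dDC against control, 0 of 97 members passed an adjusted p of 0.05 by edgeR's quasi-likelihood test (0.00543% of all tested genes passed), 4 members had an unadjusted p under 0.05, and limma called 0. The median log2 difference was -0.22 over the mitochondrial members and 0.09 over the nuclear ones, against 0.00 over all tested genes, and 2 of 13 and 53 of 84 were positive. All tested genes include many of lower level than most members. No genes of like level are set beside these medians, here or in the other comparisons. Counts of members with an unadjusted p under 0.05, or with a positive difference, also stand without the same share over all tested genes. Such counts are therefore not read as a result about the members in any comparison. The nuclear median became -0.06 without PEC dDC replicate 2, and the mitochondrial one stayed negative in each of the 15 fits without 1 library. Leading the list was mt-Nd6, the complex I subunit encoded on the strand opposite to the other mitochondrial members, with 341 and 409 CPM in PEC dDC libraries, against 539 and 642 CPM in PEC control libraries. The PEC dDC values were below all 13 other libraries, of which the lowest had 421 CPM. The log2 difference was -0.66 ± 0.15 (SE) with an unadjusted p of 0.00106 and an adjusted p of 0.296 by edgeR, and DESeq2 gave an adjusted p of 0.0105, so that its call depended on the tool. The libraries do not mark the strand, so reads antisense to mt-Nd6 would count with it.

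The other mitochondrial members with a low p in PEC were complex I subunits too. For mt-Nd4, which lies in the membrane arm, PEC dDC libraries had 1025 and 1034 CPM and PEC control libraries 1329 and 1182 CPM, a log2 difference of -0.29 (adjusted p = 0.745 by edgeR). For mt-Nd5 they had 1690 and 1673 CPM, against 2016 and 2616 CPM in PEC control libraries, a log2 difference of -0.46 (adjusted p = 0.768 by edgeR). In both genes the PEC dDC values lay below both PEC control values, but the difference did not pass the test. The mt-Co1 values, 2471 and 4138 CPM in dDC against 4417 and 3928 CPM in control, were spread so widely between the PEC dDC libraries that the groups overlapped.

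The nuclear members with the smallest p in PEC lay on the other side of 0. Uqcrb, a ubiquinone-binding accessory subunit of complex III, had 132 and 140 CPM in PEC dDC libraries, against 101 and 75.7 CPM in PEC control libraries, a log2 difference of 0.62 ± 0.22 (SE; adjusted p = 0.657 by edgeR). Sdha had 686 and 454 CPM against 413 and 352 CPM (log2 difference 0.58, adjusted p = 0.779 by edgeR). Ndufa5, an accessory subunit of complex I, had 75.5 and 90.4 CPM against 73.7 and 36.6 CPM (log2 difference 0.59, adjusted p = 0.78 by edgeR). None of these passed, and 1 PEC control library set the low end of each. That library also held the most macrophage and dendritic cell marker counts of all (1535 CPM, against 64.3 CPM in the other PEC control library), and their part in these values was not tested.

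In thymus, dDC against control, edgeR called 0 of 97 members and 0% of all genes, 5 members had an unadjusted p under 0.05 and limma called 0. Ndufb2, an accessory subunit of complex I, had 10.8 and 5.60 CPM in thymus dDC libraries, against 32.1, 17.8 and 36.0 CPM in thymus control libraries. The groups did not overlap, and the thymus control libraries were above all 12 others, which lay between 5.60 and 15.4 CPM. The log2 difference was -1.80 ± 0.44 (SE; unadjusted p = 0.00142, adjusted p = 0.602 by edgeR), while DESeq2 gave an adjusted p of 0.00828. Of the Ndufb2 exon bases 7.94% overlap other genes, 5.37% on the other strand, with Gm16272 overlapping most. Reads from there cannot be told apart in these libraries. Sdhc, a membrane anchor of complex II, had 118 and 101 CPM in thymus dDC libraries, against 56.8, 76.2 and 88.7 CPM in thymus control libraries (log2 difference 0.57, adjusted p = 0.748 by edgeR). Ndufa10 had 55.9 and 63.0 CPM against 123, 97.4 and 67.5 CPM (log2 difference -0.69), Cox6a1 305 and 257 CPM against 243, 195 and 191 CPM (0.42), and Ndufs6b 40.4 and 23.7 CPM against 22.9, 20.7 and 15.7 CPM (0.70), each with an adjusted p of 0.748 by edgeR. The median over the mitochondrial members was -0.04 and that over the nuclear members 0.10, against -0.03 over all tested genes, with 5 of 13 and 57 of 84 positive. Without thymus dDC replicate 1 the mitochondrial median was 0.11.

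In spleen, dDC against control, edgeR called 0 of 97 members and 0% of all genes, 1 member had an unadjusted p under 0.05, and DESeq2 and limma each called 0. That member was Ndufc2, an accessory subunit of complex I, with 120, 109 and 110 CPM in spleen dDC libraries, against 68.9, 83.6 and 103 CPM in spleen control libraries (log2 difference 0.41 ± 0.18 SE, adjusted p = 1 by edgeR). The 3 dDC libraries were above the 3 controls. Ndufs3, a core subunit of complex I, had 29.4, 35.8 and 35.9 CPM in spleen dDC libraries, against 28.1, 23.8 and 23.2 CPM in spleen control libraries (log2 difference 0.43, adjusted p = 1 by edgeR). Cox6a2, the heart and muscle form, had 0 counts in all 3 spleen dDC libraries and 0.514, 0 and 0 CPM in spleen control libraries, so no fold is given. The median log2 difference was 0.01 over the mitochondrial and 0.08 over the nuclear members, against -0.01 over all tested genes, with 7 of 13 and 58 of 84 positive.

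Averaged over the 3 tissues with equal weight, dDC against control, edgeR called 0 of 97 members, against 0.076% of all tested genes, 8 members had an unadjusted p under 0.05 and limma called 0. Uqcrb had the smallest p: besides its PEC values it had 144 and 135 CPM in thymus dDC libraries, against 136, 87.0 and 99.5 CPM in thymus control libraries, and 147, 158 and 149 CPM in spleen dDC libraries, against 123, 105 and 143 CPM in spleen control libraries. The dDC libraries were higher without overlap in PEC and spleen, and the groups overlapped in thymus. The log2 difference was 0.43 ± 0.11 (SE; unadjusted p = 0.00271, adjusted p = 0.243 by edgeR), and DESeq2 gave an adjusted p of 0.0312. Among its stretches of 50 bases, 25.5% recur in other genes, most often in the processed pseudogene Gm16089. Ndufa4 (0.30, adjusted p = 0.351 by edgeR) and Ndufa5 (0.38, adjusted p = 0.443 by edgeR) followed, and without PEC control replicate 1 Ndufa5 had 0.58 with an adjusted p of 0.0474. Over the average, 1 of 13 mitochondrial members was positive with a median of -0.06. Of the nuclear members 61 of 84 were positive, with a median of 0.10. The 84 include Cox6a2 and Cox4i2, whose counts were too low for a usable estimate. The members were read in the same libraries, so their signs are not independent of one another. All tested genes, many of them of lower level, had a median of -0.02. The 3 tissue differences share no libraries with one another, but the labels do not say whether the tissues came from the same mice.

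Whether the dDC difference itself varied between tissues was tested as an interaction, and edgeR called 0 members in each of the 3 contrasts, with 0% of all genes called. For PEC minus spleen, 3 members had an unadjusted p under 0.05, limma called 0 and DESeq2 called 1, and mt-Nd6 had a difference of -0.84 ± 0.20 on the log2 scale (SE; unadjusted p = 0.00116, adjusted p = 0.92 by edgeR). For PEC minus thymus 5 members had an unadjusted p under 0.05, Ndufb2 leading at 1.98 (adjusted p = 0.84 by edgeR). For thymus minus spleen 2 had one, again with Ndufb2 first at -1.76 (adjusted p = 0.965 by edgeR). DESeq2 and limma called 0 members in these last 2 contrasts.

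Between tissues, averaged over the genotypes, edgeR called 3 of 97 members for PEC against thymus, all lower in PEC. It called 5.61% of all tested genes, and 2.58% as lower in PEC. The count of members is thus below the first share and near the second. For mt-Nd4, PEC libraries had 1025 and 1034 CPM in dDC and 1329 and 1182 CPM in control Tregs, and thymus libraries had 1348 and 1544 CPM in dDC and 1500, 1454 and 1639 CPM in control Tregs. All 4 PEC libraries were below all 5 thymus libraries. The log2 difference was -0.39 ± 0.08 (SE; adjusted p = 0.0133 by edgeR). For mt-Cytb, PEC libraries had 4860 and 4666 CPM in dDC and 5880 and 5189 CPM in control Tregs, and thymus libraries had 5896 and 7498 CPM in dDC and 7460, 6836 and 7444 CPM in control Tregs. The tissues did not overlap, though the highest PEC and the lowest thymus value lay side by side, and the log2 difference was -0.44 ± 0.10 (SE; adjusted p = 0.0274 by edgeR).

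The third was Atp5d, the delta subunit of the ATP synthase stalk, on chromosome 10 (mm10, chr10:80138632-80145818, plus strand). It had 77.2 and 118 CPM in PEC dDC and 109 and 144 CPM in PEC control libraries, and 221 and 144 CPM in thymus dDC and 203, 197 and 196 CPM in thymus control libraries. The thymus dDC library of 144 CPM was level with the highest PEC library, and the log2 difference was -0.78 ± 0.17 (SE; adjusted p = 0.0194 by edgeR). The calls were not firm against single libraries. With PEC dDC replicate 1 left out, the adjusted p became 0.0569 for mt-Nd4, 0.082 for Atp5d and 0.0775 for mt-Cytb by edgeR, at log2 differences of -0.39, -0.64 and -0.46. Without PEC control replicate 1 only the Atp5d call was lost (-0.68, adjusted p = 0.063 by edgeR), and without PEC control replicate 2 those of mt-Nd4 and mt-Cytb (-0.35 and -0.39, 0.072 and 0.119). Without PEC dDC replicate 2 the same 2 were lost (-0.39 and -0.42, 0.0573 and 0.113), as they were without thymus dDC replicate 2 (-0.34 and -0.35, 0.051 and 0.0903). The Atp5d call was lost without thymus dDC replicate 1 (-0.60, 0.0911), and that of mt-Cytb without thymus control replicate 1 or 3 (-0.43 each, 0.0582 and 0.0576).

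Beyond these, the median log2 difference of PEC minus thymus was -0.11 over the mitochondrial members, of which 1 of 13 was positive, and -0.10 over the nuclear members, of which 20 of 84 were, against 0.00 over all tested genes. Without thymus dDC replicate 2 the mitochondrial median was 0.09. By complex, 12 of 39 nuclear members were positive in complex I, 2 of 4 in II, 0 of 8 in III, 3 of 16 in IV and 3 of 17 in V, and no difference between complexes was tested. After the called members Uqcrq had the smallest p (-0.57, adjusted p = 0.0759 by edgeR). In controls alone, Ndufb2 was called lower in PEC (2.47% of all genes were called, 1.13% as lower): it had 7.63 and 7.98 CPM in PEC control libraries, against 32.1, 17.8 and 36.0 CPM in thymus control libraries (-1.87 ± 0.44 SE, adjusted p = 0.0463 by edgeR). With limma, with no filter on low counts and in 11 of 15 fits without 1 library no member was called in controls, and 1 was called without PEC control replicate 1, thymus dDC replicate 1 or 2, or thymus control replicate 2. In dDC Tregs Ndufb2 had 8.29 and 9.33 CPM in PEC, against 10.8 and 5.60 CPM in thymus. In dDC Tregs alone edgeR called 0 members (1.35% of all genes), 9 had an unadjusted p under 0.05, DESeq2 called 3 and limma 1. Markers of other cells moved with this comparison: 9 of 10 B cell markers, 3 of 11 tested macrophage and dendritic cell markers and 0 of 8 tested thymocyte markers were called higher in PEC, and 2 thymocyte markers lower. Of the 8 Treg markers 4 were called lower in PEC, among them Il2ra (-0.97) and Ikzf2 (-0.68), and the part of other cells in the member differences was not tested.

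PEC against spleen, edgeR called 1 of 97 members, Atp5d, which was lower in PEC, and 2.89% of all tested genes, 1.66% as lower in PEC. Within the genotypes edgeR called 0 members, with 0.906% of all genes called in dDC and 0.792% in control Tregs. There 7 members had an unadjusted p under 0.05 in each genotype, DESeq2 called 3 and 0, and limma 0 in both. Spleen libraries had 156, 206 and 158 CPM in dDC and 163, 181 and 203 CPM in control Tregs, all above the 4 PEC libraries given for this gene. The log2 difference was -0.68 ± 0.16 (SE; adjusted p = 0.0495 by edgeR). That call lay at the threshold: it was lost in 12 of 15 fits without 1 library, with log2 differences of -0.84 to -0.54 and adjusted p-values up to 0.185 over the 15 fits, and with other size factors (adjusted p = 0.0633). DESeq2 and limma kept it (0.00384 and 0.0359). The nuclear members had a median of -0.14 with 18 of 84 positive, against -0.03 over all tested genes, and the mitochondrial members a median of -0.03 with 6 of 13 positive, which was 0.05 without PEC control replicate 1. After Atp5d came Uqcrq (-0.52, adjusted p = 0.137 by edgeR), a small subunit of complex III, with 70.2 and 93.6 CPM in PEC dDC and 99.0 and 64.9 CPM in PEC control libraries, against 117, 143 and 106 CPM in spleen dDC and 96.4, 108 and 135 CPM in spleen control libraries. Erythroid markers moved with this comparison (2 of 7 called lower in PEC), as did 2 of 12 proliferation markers, lower in PEC, and 1 of 10 B cell markers, higher in PEC, and their part was not tested.

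Thymus against spleen, edgeR called 0 of 97 members and 1.32% of all tested genes, 1 member had an unadjusted p under 0.05, and DESeq2 and limma each called 0. That member was mt-Nd4 (0.16 ± 0.07 SE, adjusted p = 0.396 by edgeR), with the thymus values above and 1402, 1387 and 1462 CPM in spleen dDC and 1306, 1090 and 1377 CPM in spleen control libraries, so that the tissues overlapped. The mitochondrial members had a median of 0.16 with 10 of 13 positive, and the nuclear members a median of -0.05 with 33 of 84 positive, against -0.03 over all tested genes. Without thymus dDC replicate 2 the mitochondrial median was -0.03. The nuclear members with the smallest p were Ndufb10 (-0.22, adjusted p = 0.401 by edgeR) and Ndufs5 (0.45, adjusted p = 0.436 by edgeR), both accessory subunits of complex I.

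**Figure D4:**
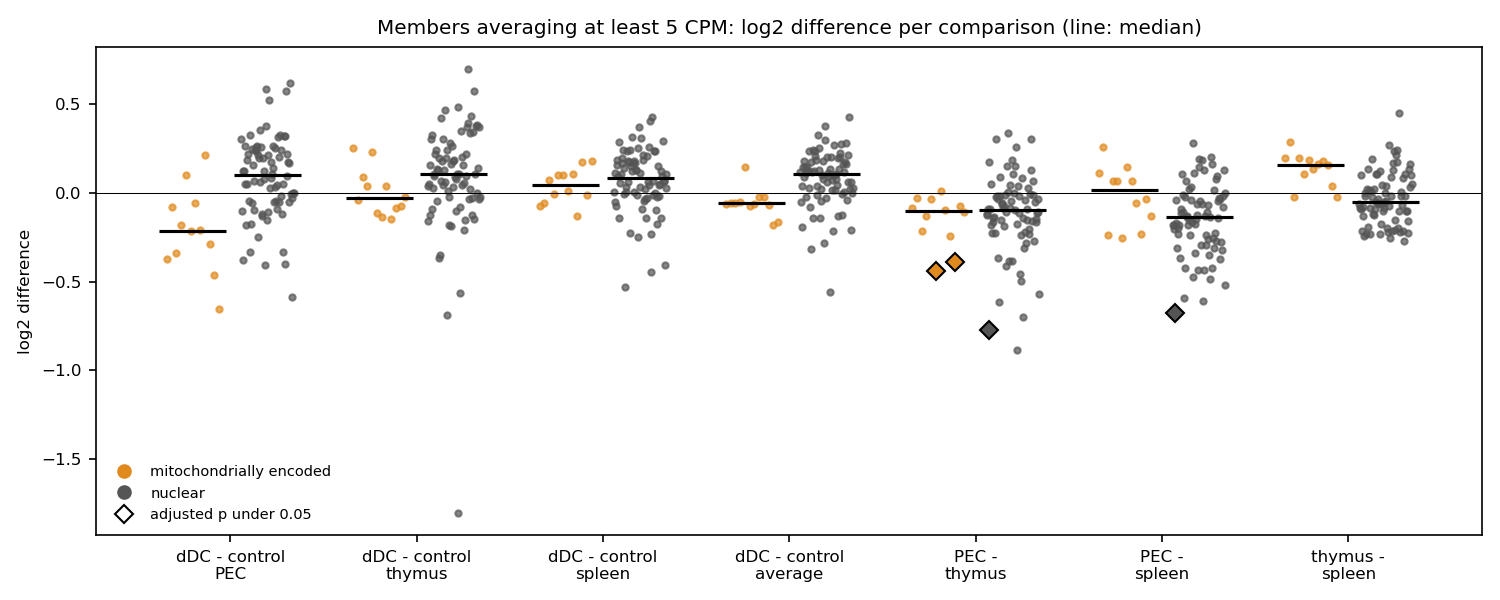
Log2 difference of each member averaging at least 5 CPM (12 mitochondrially encoded and 78 nuclear) in 7 comparisons; lines are medians and diamonds mark an adjusted p under 0.05 by edgeR. In PEC the mitochondrial median is -0.21 and the nuclear one 0.10 for dDC minus control, and the 4 diamonds are mt-Nd4, mt-Cytb and Atp5d for PEC minus thymus and Atp5d for PEC minus spleen.

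**Figure D5:**
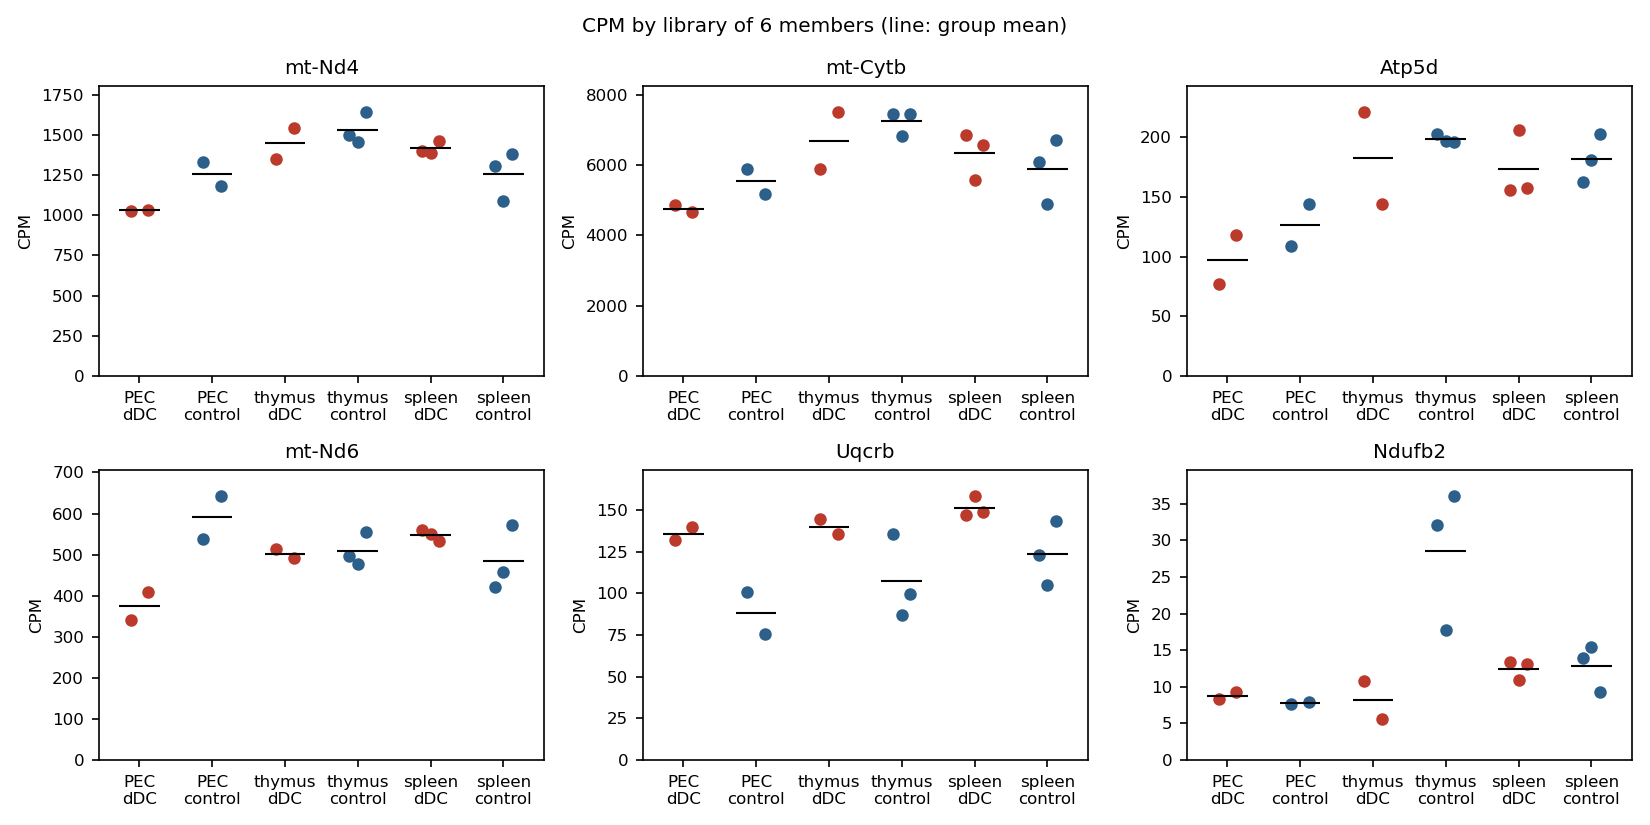
CPM in each library of 6 members (points; line, group mean; dDC left of control in each tissue). The PEC dDC libraries are lowest for mt-Nd6 at 341 and 409 CPM, and the thymus control libraries are highest for Ndufb2 at 17.8 to 36.0 CPM.

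Genes that build and serve the chain were followed in 8 further lists (assembly factors, the citric acid cycle, expression of mitochondrial DNA, biogenesis regulators, ubiquinone synthesis, uncoupling and oxidant defence, mitochondrial dynamics, and other electron carriers), with 169 genes tested. For dDC against control edgeR called none of them in PEC, thymus, spleen or the average, with 9, 14, 7 and 12 at an unadjusted p under 0.05. The share of all tested genes under that unadjusted cut is not set beside these counts. For PEC against thymus it called 5 of 169, where 5.61% of all tested genes were called, so the count is below the share over all genes. Acad9, which is needed to assemble complex I, was lower in PEC (-1.57, adjusted p = 0.0119 by edgeR), as was Pnpt1, an exonuclease that works on RNA in mitochondria (-0.99, adjusted p = 0.0104). Coa5, an assembly factor of complex IV (0.73, adjusted p = 0.00671 by edgeR), Gpd2, which feeds electrons from glycerol 3-phosphate to ubiquinone (1.21, adjusted p = 0.0199), and Gpx1, a peroxidase (0.63, adjusted p = 0.0317), were higher in PEC. Pnpt1 was also the gene called for PEC against spleen, 1 of 169 against 2.89% of all tested genes (-0.88, adjusted p = 0.0242 by edgeR). For thymus against spleen edgeR called 0 of 169 against 1.32% of all tested genes, with 15 at an unadjusted p under 0.05.

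Within groups the 2 kinds of members varied to a like degree. Over members above 20 CPM, the median within-group SD of log2 CPM was 0.193 for the 10 mitochondrial and 0.216 for the 69 nuclear ones, and the median range of the 6 group means was 0.403 and 0.409. Across the 15 libraries, the genes outside the rule whose log2 CPM followed the summed mitochondrial members most closely, of 10543 compared, were Trim30a (Pearson r = 0.82), Gm19503 (0.80), Kcnip2 (0.79), Btrc (0.76) and Mcub (0.76). These correlations are a description over libraries that share tissue and genotype, and the 5 genes are the top of a long ranking. Gm19503 is a processed pseudogene that shares 6 of the 1162 stretches of 50 bases in the nuclear member Cox7b.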

How the data were processed

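RNA of sorted Tregs was turned into cDNA from a poly-dT primer and amplified, and libraries were made from sheared cDNA by a chemistry that does not mark the strand, per the labels' protocols. The authors deposited 1 table of raw counts per gene and library, with exon positions and exon length in bases. GSNAP and featureCounts 1.6.0 with build mm10 are named in the submitters' processing notes; the sources used here do not give the strand setting or the treatment of multi-mapping reads. No molecular identifiers are named, so zero-count limits cover counting error only.

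The 15 libraries were grouped by their labels. Symbols came from GENCODE M21 (45143 of 45706 identifiers); 92 spike-in rows, with at most 6 counts in a library, were left out. edgeR 4.0.16 (R 4.3.3) kept 18423 genes by filterByExpr, with 99.93% of counts, scaled them by TMM, and fitted 1 robust quasi-likelihood model of 6 group means (9 residual degrees of freedom), tested two-sided with Benjamini-Hochberg adjustment over all tested genes and a threshold of 0.05. The median biological coefficient of variation was 0.187 for nuclear and 0.184 for mitochondrial members. It was 0.551 over all genes and 0.256 over genes above 20 CPM. Levels between genes are CPM per kilobase of the deposited exon length. DESeq2 1.42.0, limma 3.58.1 and other scalings were alternatives. The pipeline was tested on simulated counts.

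Copies were aligned and stretches of 50 bases compared among GENCODE M21 transcripts with biopython 1.88; promoters are from RefSeq, on GRCm38.p6. Named were all 13 mitochondrial members, members past the threshold (where there were none, the 3 smallest p-values each way) and the 5 highest and 5 lowest levels; other members named beside these were chosen after their values were seen. Members and lists were chosen with earlier results of these data known. Some items that this rule would name are not reported here.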

Additional observations from a re-analysis of the deposited data

How the results depend on the processing

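For dDC against control the counts of called members were 0 by edgeR in each tissue and in the average, and these counts stayed 0 with other size factors (RLE), total counts, chromosome M reads left out, limma and no filter. DESeq2 called 1 in thymus, 1 in PEC, 1 in the average and 1 for PEC minus spleen of the dDC difference. It also called 2 members for PEC against spleen, 7 for PEC against thymus, 3 each for PEC against spleen and against thymus in dDC Tregs, and 2 for PEC against thymus in control Tregs. The share of all genes that DESeq2 or limma called is not set beside their counts, here or in the comparisons above. Those counts are therefore not read as a result about the members. For PEC against spleen 0 were called with RLE, with chromosome M reads left out, which fits fewer genes, and with only the libraries compared. For PEC against thymus 1 was called with chromosome M reads left out, since the mitochondrial members are then not in the fit. In dDC Tregs alone, PEC against thymus gave 1 with RLE, 1 with total counts and 1 with limma, and PEC against spleen 1 with total counts. In control Tregs alone, PEC against thymus gave 0 with limma and 0 with no filter. With only the libraries compared, Atp5d for PEC against thymus had -0.77 (adjusted p = 0.0789 by edgeR). The mt-Nd6 difference in the average turned to 0.079 over spleen and thymus only (adjusted p = 0.936 by edgeR), and the fitted one of Cox6a2 in spleen ranged from -5.31 to 0 without 1 library each, reaching 0 without spleen control replicate 1, when both groups had no count. Causes were not tested unless stated.

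Without 1 library each, the members called ranged from 0 to 4 for PEC against thymus, and from 0 to 1 for PEC against spleen, for PEC against spleen and against thymus in each genotype, and for the dDC average. Median log2 differences ranged from -0.31 to 0.11 (mitochondrial, dDC in thymus), -0.28 to 0.086 (mitochondrial, PEC against thymus), -0.026 to 0.23 (mitochondrial, thymus against spleen) and -0.06 to 0.24 (nuclear, dDC in PEC). Where a group was left with 1 library, it was assumed to vary like the others. With the counts of the chromosome 1 copies added, the mean mitochondrial share was 2.07% in thymus control, 1.86% in PEC control and 1.49% in PEC dDC libraries. Without antigen receptor segments, and with no copies added, the mean was 1.83% in PEC control libraries. The PEC dDC libraries then had 1.37 and 1.55%. With gene span in place of exon length the nuclear median level was 13.3 CPM per kilobase. A summary of the main fit that leaves out the 6 mitochondrial members of low count was chosen after seeing the data. The replicate block, made of neighbouring library numbers, rests on numbers only: deviations of neighbours correlated at -0.061 to 0.126 over 7 pairs. With the block the medians in PEC were -0.21 and 0.09 (mitochondrial and nuclear), 0 members were called, and no call changed.

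Groups of 2 or 3 libraries limit the precision, and Cox5a, mt-Atp8, mt-Nd3 and mt-Nd4l rest on fewer counts, with medians of 3.09, 6.68, 5.61 and 2.43 CPM.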
